A study of Mus musculus with 6 samples.

Results

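The epidermal growth factor (EGF) family was examined in colon RNA of Islr knockout and control mice. It was taken as 10 genes: the ligands Areg, Ereg, Hbegf, Tgfa, Btc, Epgn and Nrg1 and the receptors Egfr, Erbb2 and Erbb3. Every array probe whose RefSeq transcript maps to one of these mouse symbols was kept, which gave 16 probes of 56605 on the array, and 10 of the 23462 genes that a probe could be named for. The series compared whole-genome expression in the colon of 3 Control and 3 Islr knockout males, with 1 single-colour Agilent array per animal. Islr, also known as Meflin, is a membrane-anchored leucine-rich repeat protein of mesenchymal stromal cells. Per the source labels, both groups had drunk water with 3.5% dextran sulphate sodium (DSS), which damages the gut lining, for 5 days and then recovered for 1 day, while the treatment field of the same samples states no treatment. Age, strain and the way the Islr allele was disrupted, including any promoter or Cre driver, are not given in the sources used here. The series' design text speaks of flow separation into TRIzol without naming a sorted population, so the samples are described as colon.

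EGF family ligands are made as membrane-bound precursors, which proteases of the ADAM family cut to release a soluble factor. Areg, Ereg, Hbegf, Tgfa, Btc and Epgn bind Egfr, and Hbegf, Ereg and Btc can also bind Erbb4. Nrg1 binds Erbb3 and Erbb4, and Erbb2, which has no ligand of its own, pairs with the other receptors and passes the signal on to the Ras, ERK and PI3-kinase cascades. In the gut, ligands of Egfr come from epithelium, stroma and immune cells and drive epithelial restitution after injury, and Nrg1 from stromal cells and macrophages acts on epithelial receptors.

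Levels are given as log2 of the processed signal minus the 75th percentile of the same array, so 0 is the 75th percentile of that array and 1 unit is a doubling. Values of different probes are not set against each other, since each probe hybridises with its own efficiency. Differences are knockout minus control. A probe was called when the Benjamini-Hochberg adjusted p of limma over all tested probes was under 0.05. Each animal gave 1 array, so the spread between animals and that between arrays cannot be told apart. The p-values set the group difference against this spread, with limma's variance estimate drawing on all tested probes. A permutation of 3 arrays against 3 cannot give a two-sided p below 0.1, so single-probe permutation tests could not reach the threshold here. Spots that the scanner software had marked as outliers (pixels not uniform, or a value apart from its repeats) were left out of the tests and are shown beside them.

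Of the 16 probes 14, from 9 of the 10 genes, could be tested, and 3 were called. Nrg1 fell in the knockout (probe A_52_P369769), and Tgfa and Erbb3 rose. Over all 35351 tested probes 3.97% were called, 1.55% as higher and 2.42% as lower in the knockout. The median difference of the 14 probes was -0.22, with 6 higher and 8 lower, against 5.75e-05 over all tested probes. At an unadjusted p under 0.05 the members counted 8 of 14, against 26.8% of all tested probes. With outlier spots kept, all 16 probes could be tested and 2 were called, Nrg1 and Erbb3, against 4.85% of 40172 probes. In the same setting the 3 knockout and 3 control arrays did not overlap at 10 of the 16 probes, 4 of them higher and 6 lower in the knockout. Over all probes such separation was seen at 34.9%, with 17.3% higher and 17.6% lower.

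The arrays themselves differed in ways that touch these probes. Islr, the targeted gene, was well above background on all 6 arrays and read 1.57, 1.24 and 1.21 in the controls and -1.40, -0.93 and -1.31 in the knockouts, a difference of -2.44 (SE 0.21, limma adjusted p = 0.0171), with the first control value an outlier spot and not in the test. Outlier spots made up 3.26% to 15.99% of an array's spots, with the highest shares on control 1 and knockout 1, and 10.69% to 56.8% of the brightest 10%. Among the 96 member spots there were 12, on 4 probes, including 4 on control 1. Knockout 1 was the lowest knockout array at 11 of the 16 probes, and control 2 the lowest control at 11 of 16. The labels name no slide position. If the names of the scans give positions, all 6 arrays lay on 1 slide, with controls in one row and knockouts in the other. Slide row and genotype could then not be told apart.

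Nrg1, the neuregulin that signals through Erbb3, was the ligand with the lowest adjusted p. Probe A_52_P369769 read -0.42, 0.01 and -0.06 in the controls and -4.16, -3.04 and -2.74 in the knockouts. Every knockout array lay below every control array, with knockout 1 lowest. The means were -0.16 ± 0.23 and -3.32 ± 0.75 (SD, n = 3 each), so the signal was 8.92-fold higher in the controls (difference -3.16, SE 0.37, 95% interval -4.05 to -2.27, limma adjusted p = 0.0233). The call was kept with outlier spots included (adjusted p = 0.0185) and lost without control 2 (0.0672), control 3 (0.0662) or knockout 3 (0.0528).

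A second Nrg1 probe, A_55_P1985433, which represents the same curated RefSeq transcript, read 2.59, 2.33 and 2.51 in the controls and -1.40, 0.52 and 0.74 in the knockouts. The groups again did not overlap and knockout 1 was again lowest. Its difference of -2.52 (SE 0.55, 95% interval -3.83 to -1.22) did not pass by limma (adjusted p = 0.0547), and it passed under 8 of the 16 alternative settings tried. The third probe, A_55_P2811400, represents a predicted Nrg1 transcript and was an outlier spot on every array but control 2. It read 0.28, 1.05 and 0.66 in the controls and 0.76, 0.74 and 0.83 in the knockouts. There the groups overlapped and the difference with outlier spots kept was 0.12 (SE 0.22, 95% interval -0.40 to 0.64, limma adjusted p = 0.754).

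The Nrg1 probes were therefore compared with each other within each array, with outlier spots kept. The change at A_52_P369769 differed from that at A_55_P1985433 by -0.64, with overlapping groups (exact permutation test, two-sided, p = 0.2). Against the third probe the changes differed by -3.28 for A_52_P369769 and -2.64 for A_55_P1985433, in both cases without overlap between groups (exact permutation p = 0.1 each, the smallest possible; 3 pairs of probes compared, unadjusted).

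**Figure D1:**
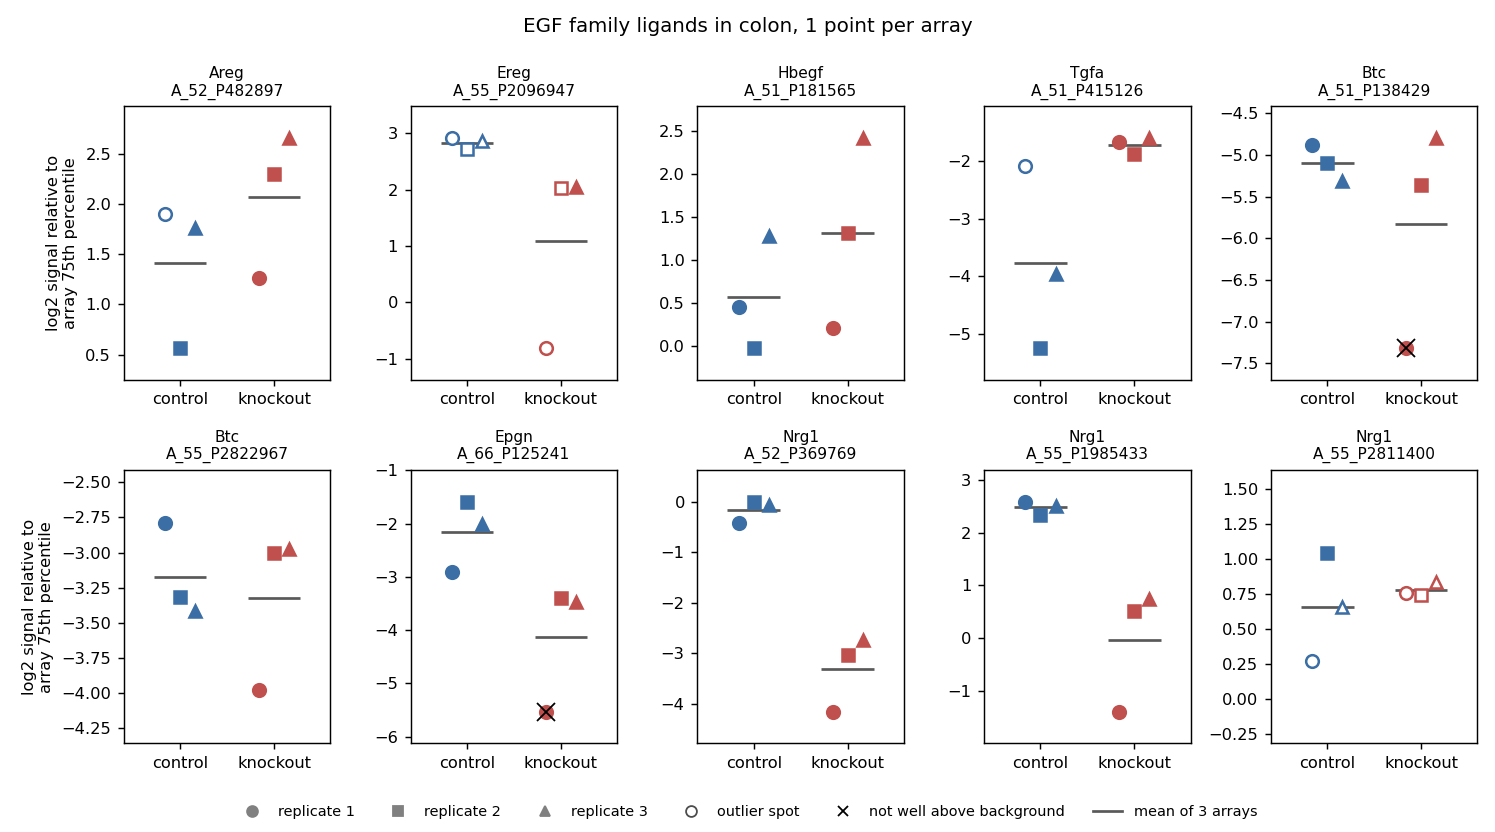
Log2 signal relative to the 75th percentile of the array for the 10 ligand probes, 1 point per array, with the mean of the 3 arrays of a group as a line, open points for outlier spots and crosses for spots not well above background. All panels have their own vertical axis; the knockout points of Nrg1 probe A_52_P369769 lie between -4.16 and -2.74, below all control points.

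Tgfa, an Egfr ligand made by epithelial cells among others, was the ligand that rose. Its probe A_51_P415126 read -2.08, -5.25 and -3.96 in the controls and -1.66, -1.88 and -1.59 in the knockouts. The 3 knockouts lay close together and above all controls, while the controls spread widely and control 1, an outlier spot, came close to the knockouts. With that spot left out the difference was 2.89 (SE 0.39, 95% interval 1.92 to 3.87, limma adjusted p = 0.0329), or 7.44-fold, over 2 controls and 3 knockouts. With it kept the difference was 2.05 (SE 0.72, 95% interval 0.33 to 3.78), or 4.15-fold, and did not pass (adjusted p = 0.129). The call was also lost without knockout 1 (0.0798) or knockout 3 (0.0852), and the probe could not be tested without control 2 or control 3.

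The Tgfa start region is shown because Tgfa was the called ligand with an entry in the RefSeq promoter table (GRCm38.p6, chr6:86194972-86195271, plus strand, 250 bases before to 50 after the start). Of the 10 genes 6 had an entry there. Capitals mark the GC box, a binding motif of Sp factors.

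Tgfa: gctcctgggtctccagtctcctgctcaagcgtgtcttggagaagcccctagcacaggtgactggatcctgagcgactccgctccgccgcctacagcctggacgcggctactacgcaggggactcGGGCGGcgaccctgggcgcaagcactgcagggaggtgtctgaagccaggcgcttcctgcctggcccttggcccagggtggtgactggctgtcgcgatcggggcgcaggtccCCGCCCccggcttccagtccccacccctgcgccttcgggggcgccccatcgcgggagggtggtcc

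Each sequence was searched on both strands for the GC box, with letters GGGCGG, and the TATA box, with letters TATAAA. The other motifs were the cAMP response element bound by CREB, TGACGTCA, the site of AP-1 factors, TGANTCA, and that of TEAD factors, GGAATG. No matches overlapped in the sequences shown. Tgfa held 2 GC boxes, at -126 and -15 from the start, and none of the other motifs. A GC box occurs in 35.6% of the 32817 promoters of the same length in the table.

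Epgn, Ereg, Areg and Btc are 4 consecutive protein-coding genes on chromosome 5, and their differences did not share a direction. Areg, the amphiregulin gene, with probe A_52_P482897, read 1.90, 0.57 and 1.76 in the controls and 1.26, 2.29 and 2.66 in the knockouts. The groups overlapped, control 2 was the lowest array, and the control 1 spot was an outlier. The difference was 0.91 (SE 0.53, 95% interval -0.42 to 2.23, limma adjusted p = 0.332) without that spot and 0.66 (SE 0.48, adjusted p = 0.409) with it.

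Epgn, the epigen gene, lay on the opposite side. Probe A_66_P125241 read -2.91, -1.58 and -2.01 in the controls and -5.53, -3.40 and -3.46 in the knockouts. The groups did not overlap, and the lowest value, that of knockout 1, was not well above background. The difference was -1.97 (SE 0.63, 95% interval -3.48 to -0.45), 3.91-fold higher in controls, and did not pass by limma (adjusted p = 0.111). As 2 of 3 knockout arrays measured the probe above background, the size of that difference is uncertain, and it was -1.27 without knockout 1.

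Ereg, the epiregulin gene, had 1 probe, A_55_P2096947, and could not be tested, since it was an outlier spot on 5 arrays, the exception being knockout 3. Its processed signal was 47981, 46763 and 47240 in the controls and 2800.2, 23821 and 23890.3 in the knockouts. On the log2 scale these are 2.92, 2.72 and 2.85 against -0.81, 2.03 and 2.05, so that the groups did not overlap and knockout 1 stood far below the other two knockouts. With outlier spots kept the difference was -1.74 (SE 0.75, 95% interval -3.51 to 0.04, limma adjusted p = 0.190). Leaving out knockout 1 brought it to -0.79.

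Btc, the betacellulin gene, had 2 probes. A_51_P138429 read -4.88, -5.09 and -5.31 in the controls and -7.32, -5.36 and -4.79 in the knockouts, where the lowest value was not well above background. A_55_P2822967 read -2.79, -3.32 and -3.42 in the controls and -3.98, -3.01 and -2.98 in the knockouts. At both probes the groups overlapped and knockout 1 was the lowest array. The differences were -0.73 (SE 0.61, 95% interval -2.20 to 0.74, limma adjusted p = 0.483) and -0.15 (SE 0.32, 95% interval -0.92 to 0.63, adjusted p = 0.802).

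Areg and Epgn are shown side by side because they belong to 1 cluster, with Ereg between them, and their differences had opposite signs, although neither passed (GRCm38.p6, plus strand, Areg at chr5:91139349-91139648 and Epgn at chr5:91027267-91027566). Capitals mark the motifs listed above.

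Areg: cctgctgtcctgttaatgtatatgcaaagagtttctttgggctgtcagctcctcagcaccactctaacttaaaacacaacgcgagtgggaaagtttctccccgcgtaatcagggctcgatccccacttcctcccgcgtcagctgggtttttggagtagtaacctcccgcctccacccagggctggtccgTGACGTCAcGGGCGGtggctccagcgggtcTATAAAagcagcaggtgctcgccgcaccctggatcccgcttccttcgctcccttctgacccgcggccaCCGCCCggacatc

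Epgn: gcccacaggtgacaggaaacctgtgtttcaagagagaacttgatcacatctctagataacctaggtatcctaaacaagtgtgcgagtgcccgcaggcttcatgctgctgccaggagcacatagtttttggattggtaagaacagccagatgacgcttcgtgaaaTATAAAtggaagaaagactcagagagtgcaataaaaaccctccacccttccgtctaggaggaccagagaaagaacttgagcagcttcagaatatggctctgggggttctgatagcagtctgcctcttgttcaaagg

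Areg held a cAMP response element at -61, GC boxes at -52 and 37 and a TATA box at -31. Epgn held a TATA box at -86 and none of the other motifs. A cAMP response element occurs in 1.79% of the promoters in the table and a TATA box in 13.6%. No member with an entry held the AP-1 motif, which occurs in 7.81%.

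Hbegf, a heparin-binding ligand of Egfr with probe A_51_P181565, read 0.45, -0.02 and 1.28 in the controls and 0.21, 1.32 and 2.42 in the knockouts. The groups overlapped, and knockout 3 was the highest array. The difference was 0.74 (SE 0.59, 95% interval -0.67 to 2.16, limma adjusted p = 0.457), and was 0.19 without knockout 3 and 1.30 without knockout 1.

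Among the receptors Erbb3, the kinase-impaired partner that binds neuregulins, rose. Its probe A_55_P2119897 read -5.21, -6.75 and -6.15 in the controls and -3.49, -3.76 and -3.88 in the knockouts. These values correspond to processed signals of 172, 66.3 and 91.8 against 437, 429.7 and 392. All knockouts lay above all controls and within a narrow range, whereas the probe was well above background on 1 of the 3 control arrays, so it entered the test only through the knockouts, the group where it is high. The difference was 2.33 (SE 0.38, 95% interval 1.41 to 3.24, limma adjusted p = 0.0363). Its size is uncertain, since 2 control values were at background. The difference was 1.92 (SE 0.23, limma adjusted p = 0.0190) when dim spots were raised to the lowest signal well above background of their array. That floor draws the control values together by construction, so the lower p is no firmer support for the call. The call was lost when any array but control 1 was left out (adjusted p = 0.0536 to 0.0985).

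Erbb2, the receptor without a ligand, was represented by 2 probes of 1 transcript. A_52_P49250 read -0.98, -2.39 and -1.61 in the controls and 0.52, -0.45 and -0.59 in the knockouts. A_55_P2809338 read 0.52, -0.46 and 0.18 in the controls and 1.86, 1.05 and 1.07 in the knockouts. At both probes the groups did not overlap, control 2 was lowest and knockout 1 highest. The differences were 1.49 (SE 0.43, 95% interval 0.45 to 2.53) and 1.25 (SE 0.33, 95% interval 0.46 to 2.04), which is 2.80-fold and 2.38-fold, and neither passed by limma (adjusted p = 0.0927 and 0.0773).

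Egfr, the receptor of most of the ligands above, had 3 probes and differences of the opposite sign. A_52_P106259 read 0.66, 0.50 and 0.66 in the controls and -0.38, 0.06 and 0.29 in the knockouts, without overlap. A_52_P56471 read -0.38, -0.65 and -0.49 in the controls and -0.98, -0.66 and -0.76 in the knockouts, so that control 2 and knockout 2 nearly met. A_52_P674338 read -1.89, -2.27 and -1.89 in the controls and -3.08, -2.23 and -1.77 in the knockouts, with overlap. Knockout 1 was the lowest array at each of these probes. The differences were -0.62 (SE 0.21, 95% interval -1.11 to -0.13, limma adjusted p = 0.119), -0.30 (SE 0.16, adjusted p = 0.294) and -0.35 (SE 0.34, adjusted p = 0.550).

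**Figure D2:**
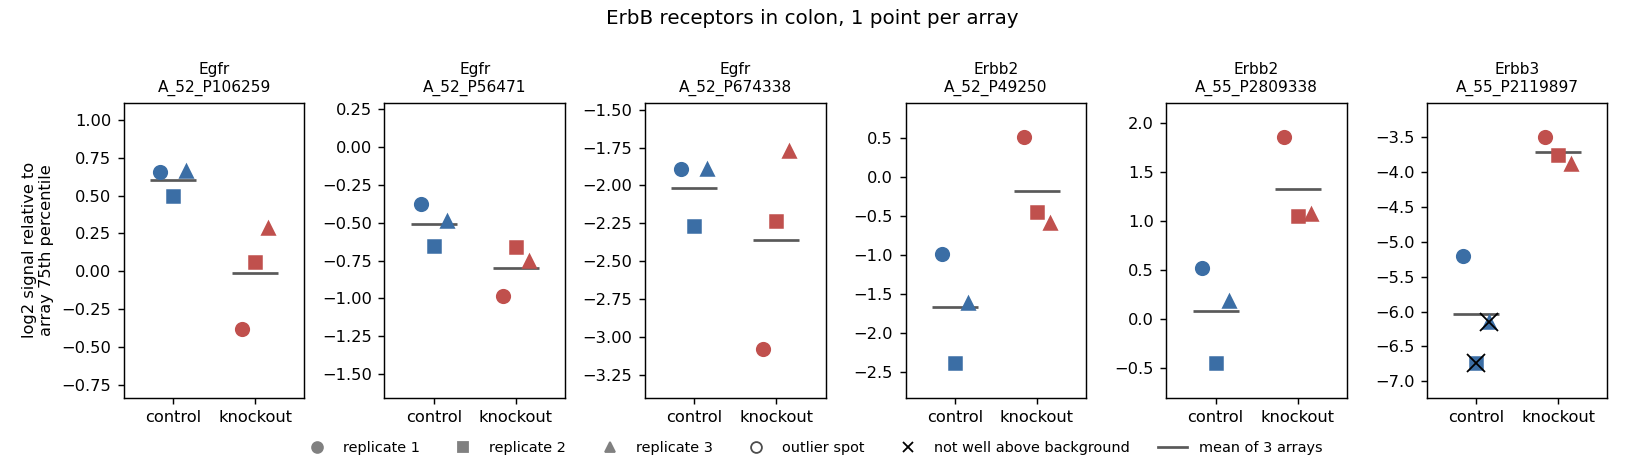
Log2 signal relative to the 75th percentile of the array for the 6 receptor probes, 1 point per array, with the mean of 3 arrays as a line and crosses for spots not well above background. Each panel has its own vertical axis; the knockout points of Erbb3 lie between -3.88 and -3.49, above all controls, of which 2 are not well above background.

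**Figure D3:**
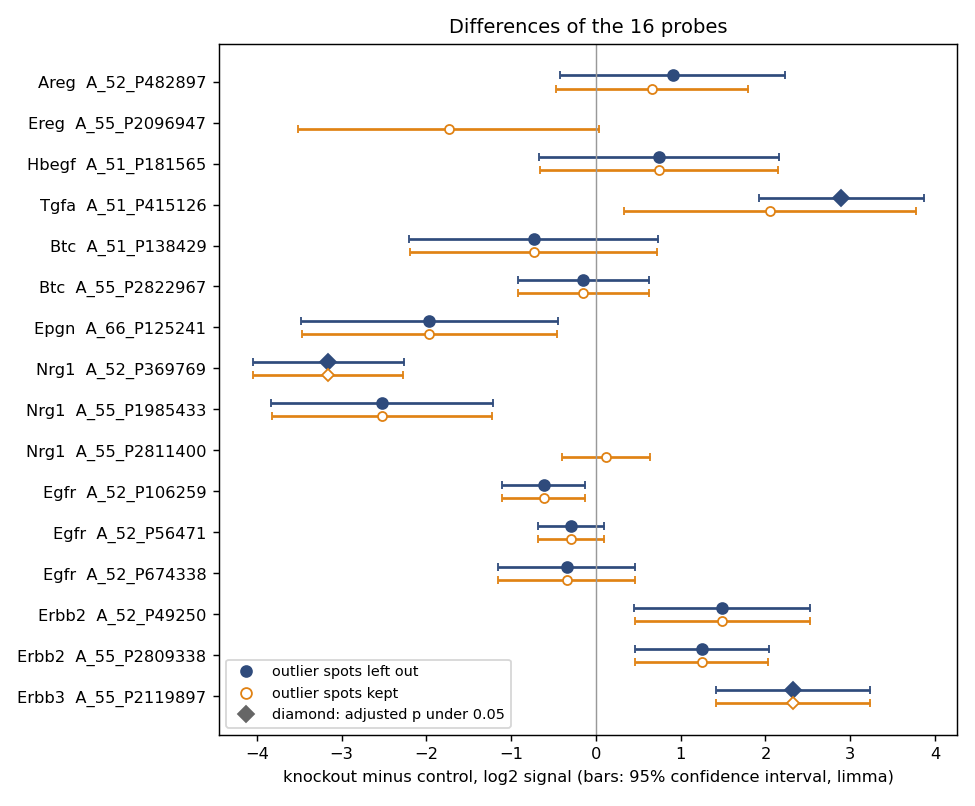
Knockout minus control on the log2 scale for the 16 probes with the 95% confidence interval of limma, in blue with outlier spots left out and in orange with them kept, and diamonds where the adjusted p is under 0.05. Ereg and the third Nrg1 probe have only an orange value; Tgfa moves from 2.89 to 2.05 and loses its diamond when outlier spots are kept.

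Levels of cell type markers also differed between the groups, mostly without passing the test. The 8 epithelial markers, Cdx2 and Vil1 among them, were well above background on all 6 arrays, as the colon label implies. All 8 were higher in the knockout at their brightest probe, with a summed level (as a multiple of the 75th percentile) of 18.2 to 53.3 in controls and 62.3 to 80.7 in knockouts. Control 2, the lowest control for most members, had the lowest epithelial level of all arrays. All 8 fibroblast markers were lower, with sums of 39.1 to 43.8 in controls and 22.9 to 31.7 in knockouts, lowest in knockout 1. In these lists 0 of 6 tested epithelial markers and 1 of 8 tested fibroblast markers were called by limma over all probes (1 and 5 at an unadjusted p under 0.05). The shares over all tested probes, also for the marker counts below, were 3.97% called and 26.8% at an unadjusted p under 0.05. In bulk samples fewer cells of a type and less RNA per cell cannot be told apart.

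Other possible sources of EGF family RNA are given by the same sums. Macrophage markers summed to 16.5 to 23.9 in controls and 10.9 to 14.8 in knockouts, with 7 of 8 lower and 0 of 7 tested called by limma (5 at an unadjusted p under 0.05). The sums for enteric glia and neurons were 12.7 to 13.3 and 9.48 to 11.6, with 8 of 8 lower and 0 of 6 tested called by limma (2 at an unadjusted p under 0.05). Endothelial sums were 11.1 to 12.3 and 3.53 to 7.53, with 8 of 8 lower and 0 of 7 tested called (6 unadjusted). Smooth muscle sums were 45.1 to 56.3 and 62.4 to 72.6, with 8 of 8 higher and 0 of 6 tested called (2 unadjusted). Neutrophil markers split. S100a8, S100a9, Cxcr2, Retnlg and Mmp9, 5 of 7 tested, were called lower, with differences from -1.93 (Cxcr2) to -4.47 (Retnlg). Csf3r, Trem1 and the untested Ly6g were higher in the knockout at their brightest probe. The differences of Csf3r (0.17, limma adjusted p = 0.483) and Trem1 (0.18, adjusted p = 0.494) were small and did not pass. Csf3r, Trem1 and Ly6g hold most of the sum in the knockouts, 26.6 to 28.7 against 31.1 to 34.4 in controls. Markers of mast cells and type 2 lymphoid cells, which can express Areg, summed to 5.11 to 7.28 and 2.15 to 3.11. They split in direction, with 3 of 8 higher and 5 lower at their brightest probe. Of these markers 1 of 5 tested, Il1rl1 (-3.18, limma adjusted p = 0.0358), was called lower, and this gene makes most of the gap between the sums. Tpsb2 (0.80) and Cma1 (0.19) were higher and Mcpt4 (-1.25) and Gata3 (-0.30) lower, none of them passing. In this list 1 of 8 was never well above background. Squamous markers summed to 8.34 to 10.8 and 11.6 to 15.6, with 2 of 9 never well above background. Trp63 holds most of the sum on each array and did not pass (0.14, limma adjusted p = 0.628), while Tgm3 was called higher (4.41). Skeletal muscle markers summed to 2.36 to 3.18 and 6.42 to 11, with 6 of 8 higher and 2 called, Tnni1 (3.72), which holds most of the sum in the knockouts, and Myh2. The Myh2 probe was well above background on 0 of the 3 control arrays, so it entered the test only through the knockouts, where it is high. The marker genes named in this paragraph were picked after their values were seen. The part of these cell types in the member differences was not tested.

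The member differences were also expressed relative to the marker levels, in 2 scalings chosen after the data had been seen that centred each array on its mean epithelial or fibroblast marker level. Centring moves all probes of an array alike and shifted the median difference of all tested probes by -1.13 and 0.71, so small differences opposite to the shift change sign by construction. The Nrg1 difference at A_52_P369769 was -4.27 relative to epithelial markers and -2.42 relative to fibroblast markers, and was called in both. Tgfa was 1.38 and 3.62, and Erbb3 1.21 and 3.06, each called relative to fibroblast markers and not relative to epithelial ones (limma adjusted p = 0.190 and 0.197). Under epithelial centring limma gave the same SE, 0.70, to every member probe with usable values on all arrays, and 0.79 to Tgfa and Areg. Calls kept or lost under that scaling thus rest on a shared spread and do not reflect the spread of the single probe. The Erbb2 probes were 0.37 and 0.13 relative to epithelial markers, against 2.22 and 1.98 relative to fibroblast markers. Areg (-0.60) and Hbegf (-0.37) relative to epithelial markers and the 3 Egfr probes (0.12, 0.44 and 0.39) relative to fibroblast markers changed sign in this way. Nrg1 at the probes of the curated transcript, Ereg and Epgn kept a negative sign and Tgfa, Erbb2 and Erbb3 a positive sign under both. The Erbb2 probes did not pass relative to epithelial markers (SE 0.70 each, limma adjusted p = 0.637 and 0.869). Relative to fibroblast markers Ereg, with outlier spots kept, was -1.01 (limma adjusted p = 0.108) and Epgn -1.23 (adjusted p = 0.0685).

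**Figure D4:**
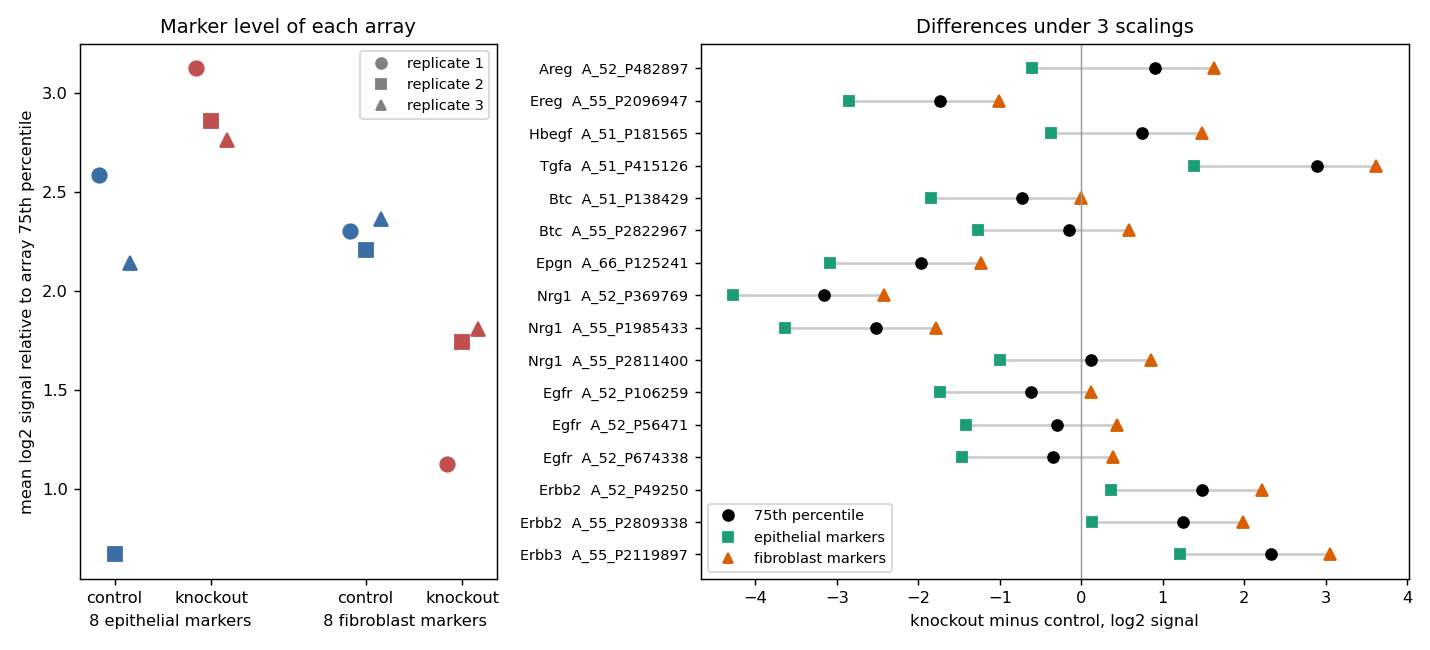
Left, mean log2 signal of 8 epithelial and 8 fibroblast markers on each array, relative to the 75th percentile; right, knockout minus control of the 16 probes (outlier spots kept for Ereg and Nrg1 A_55_P2811400) after scaling to the 75th percentile, to the epithelial or to the fibroblast markers. Control 2 has the lowest epithelial level, and Nrg1 A_52_P369769 lies between -4.27 and -2.42 under the 3 scalings.

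Genes around the ligands and receptors were taken from 5 pathway lists of 72 genes, of which 61 were tested, each through its brightest tested probe. Of these, 1 rose and 1 fell by limma over all probes, 21 were higher and 40 lower, and the median difference was -0.18. At an unadjusted p under 0.05 there were 19. Over all tested probes 3.97% were called and 26.8% had an unadjusted p under 0.05, the shares to set beside these and the list counts below.

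The remaining ligands and receptor of the family had 3 of 5 genes tested. Nrg3, a neuregulin of the nervous system, fell by 1.04 (SE 0.21, adjusted p = 0.0494) and read -2.93, -2.77 and -2.69 in the controls and -4.20, -3.52 and -3.79 in the knockouts, without overlap. Nrg2 had the smallest difference, -0.24 (SE 0.41, adjusted p = 0.739), and Egf differed by -0.68 (SE 0.54, adjusted p = 0.454). Erbb4, the other neuregulin receptor, was well above background on no array, and Nrg4 on too few to be tested.

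Of 10 genes for ligand shedding 8 were tested, with a median of -0.45. Rhbdl2, a rhomboid protease that can cut EGF family precursors, rose by 1.69 (SE 0.27, adjusted p = 0.0355). It read -0.18, -0.94 and -0.40 in the controls and 1.61, 0.95 and 1.00 in the knockouts, and the groups did not overlap. Adam8, a metalloprotease of leukocytes among others, had the lowest difference, -1.29 (SE 0.40, adjusted p = 0.115), and did not pass.

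None of the 25 tested adaptors, kinases and effectors was called by limma (3 at an unadjusted p under 0.05), with a median of -0.06. Src, a tyrosine kinase downstream of the receptors, had the highest difference, 0.88 (SE 0.20, adjusted p = 0.0610), and Plcg1, a phospholipase recruited to them, the lowest, -0.71 (SE 0.40, adjusted p = 0.307). Of the feedback inhibitors 0 of 15 tested were called by limma (6 unadjusted), with a median of -0.18. With outlier spots kept, 3 of 70 tested genes of the 5 lists were called, against 4.85% of all probes. Among them was Lrig1 of this list, left untested because of outlier spots and named after its values were seen. Its difference was -0.85 (limma adjusted p = 0.0470), without overlap. Spry1, an inhibitor of Ras and ERK signalling, had -1.43 (SE 0.45, adjusted p = 0.117) and Lrig3, a receptor-binding membrane protein, 0.56 (SE 0.36, adjusted p = 0.366).

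Transcription targets of ERK had the lowest median of the 5 lists, -1.06 over 10 of 12 genes tested, with 0 called by limma and 4 at an unadjusted p under 0.05. Knockout 1 was the lowest knockout at 9 of these 10 genes. The summed level of the list was 25.9, 29.4 and 32.1 in the controls and 19.2, 26.4 and 32.9 in the knockouts, with overlap. The extremes were Vgf, a growth factor-inducible gene, at -1.54 (SE 0.69, adjusted p = 0.210) and Ccnd1, the cyclin D1 gene, at 0.84 (SE 0.27, adjusted p = 0.108). Ccnd1 read -0.07, 0.66 and 0.87 in the controls and 1.24, 1.51 and 1.24 in the knockouts, without overlap, and Vgf -1.91, -0.64 and -0.73 against -4.03, -1.36 and -2.52, with overlap.

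**Figure D5:**
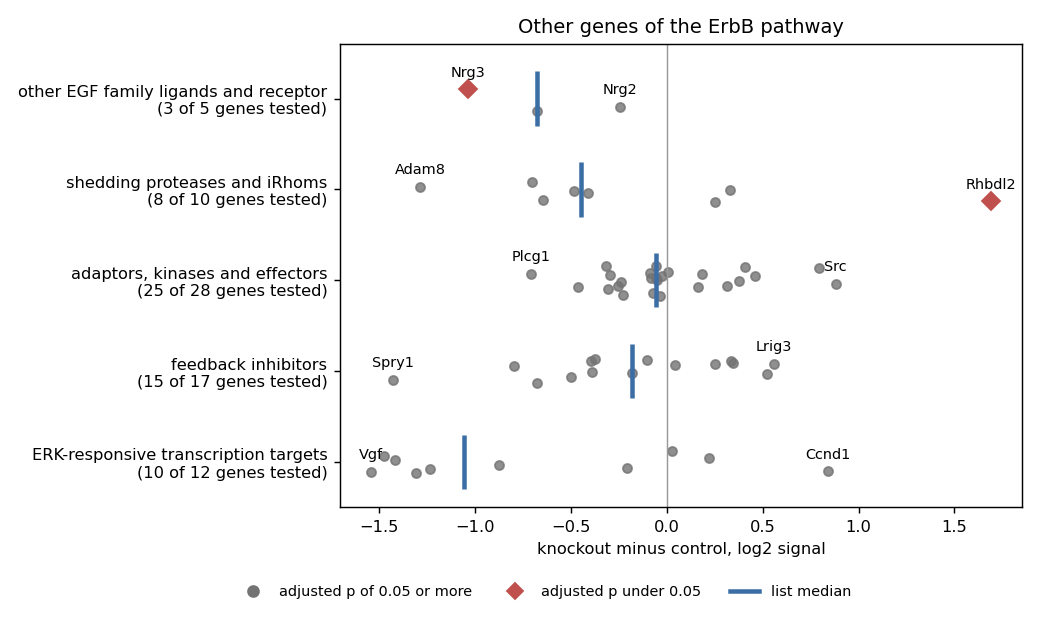
Knockout minus control on the log2 scale for the tested genes of 5 ErbB pathway lists, 1 point per gene, with list medians as blue bars and red diamonds for an adjusted p under 0.05. Rhbdl2 at 1.69 and Nrg3 at -1.04 are the called genes, and the ERK target list has the lowest median, -1.06.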

How the data were processed

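Colon RNA of 3 control and 3 Islr knockout mice was hybridised to 1 Agilent array each. The deposited processed signal is a spot intensity on a linear scale, background-subtracted and spatially detrended by Feature Extraction 11.5.1.1, per the file headers. The submitters' processing notes name Feature Extraction 10.7, and the labels a Cy3 dye and green signal, whereas the files hold the red channel, which was used. The deposited value table holds intensities that match the processed signal (log2 correlation at least 0.999999) and served as an alternative. No spot was saturated, and 69.4% to 75.4% of spots per array were well above background. The number of arrays limits the precision.

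Signals were taken to log2 minus the array's 75th percentile over non-control spots, with outlier spots missing and spots of a probe averaged. Probes well above background on all 3 arrays of a group, with at least 2 usable values per group, were tested, two-sided, with limma 3.58.1 in R 4.3.3 on genotype alone, and p-values were adjusted over 35351 probes after Benjamini and Hochberg. The code was tested on simulated data. Probes were named through RefSeq accessions, which gave 59.7% of probes a symbol. Named were all members, called genes of each pathway list with its highest and lowest difference, and the 3 genes nearest each called member, while the remaining genes of the short list of other ligands and receptor were named after their values were seen. The members and lists were chosen with earlier results of these data known. Replicate numbers only name animals. Alternatives were outlier spots kept, other background correction and scalings, no filter on dim probes, array weights, the value table and each array left out, and, added after seeing the data, marker centring and a floor for dim spots. Promoter sequences come from RefSeq (GRCm38.p6).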

Additional observations from a re-analysis of the deposited data

How the results depend on the processing

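Over the 16 member probes 244 alternative values were computed: 196 kept direction and side of the threshold, 15 lost a call, 17 gained one and 16 changed sign. All 16 changes of sign were at probes not called, and 8 of them came from marker centring, which moves all probes of an array alike and so turns small differences by construction. They were Areg (-0.60) and Hbegf (-0.37) under epithelial centring, and Btc A_51_P138429 (0.0017) under fibroblast centring. Btc A_55_P2822967 reached 0.20 with array weights and 0.59 under fibroblast centring. The third Nrg1 probe was -0.065 with array weights and -0.998 under epithelial centring. Egfr A_52_P106259 (0.12), A_52_P56471 (0.44) and A_52_P674338 (0.39) changed sign under fibroblast centring, and the last also with array weights (0.026). With 1 array left out, Btc A_51_P138429 ranged from -1.25 to 0.014, Btc A_55_P2822967 from -0.32 to 0.18, the third Nrg1 probe from -0.073 to 0.31 and Egfr A_52_P674338 from -0.64 to 0.013. The cause of the changes without centring was not tested.

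The count of called member probes, 3, became 1 without the filter on dim probes, 7 with array weights and 8 under fibroblast centring, and 0 to 3 with 1 array left out. It was 0 without control 2, control 3 or knockout 3. The calls of Tgfa and Erbb3 were also lost without the filter. The 2 called pathway genes became 6 under normexp with quantile scaling, 5 with median scaling, 0 without the filter, 18 with array weights, 8 under epithelial and 14 under fibroblast centring, and 0 to 3 with 1 array left out (0 without control 2, control 3, knockout 1 or knockout 3). Islr ranged from -2.58 to -2.34 with 1 array left out, and lost its call without knockout 3 (-2.39, limma adjusted p = 0.0580). It could not be tested without control 2 or control 3, since its control 1 spot was an outlier. Of all probes 1403 were called, against 2773 under normexp with quantile scaling, 2249 with median scaling, 2185 with quantile scaling, 484 without the filter, 8119 with array weights, 2761 under epithelial and 13609 under fibroblast centring, and 40 to 2114 with 1 array left out. The share of calls that were higher was 39.1%, against 50.7% with array weights, 3.33% under epithelial and 95.03% under fibroblast centring. No paired analysis was possible because replicate numbers only name the animals.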

Other observations

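For each called member probe the 3 genes with the nearest pattern over the 6 arrays were taken from 17118 named probes with usable values above background on all 6 arrays, by Euclidean distance of log2 values centred on their mean, with every member spot included. The Tgfa pattern was nearest to Plekhg6 (distance 0.286), Heph (0.454), a copper-dependent iron oxidase of enterocytes, and Ces2e (0.458), a carboxylesterase. None of these was called by limma (adjusted p = 0.166, 0.120 and 0.109). The Nrg1 pattern at A_52_P369769 was nearest to Dnmt3l (0.472), a cofactor of DNA methyltransferases, Hgf (0.581), the stromal ligand of Met, and Ptges (0.664), a prostaglandin E synthase. All of these fell, with log2 differences of -3.17, -3.05 and -3.30 (limma adjusted p = 0.0260, 0.0357 and 0.0260). The Erbb3 pattern was nearest to Trim38 (0.3498), Btnl6 (0.477), a butyrophilin-like gene, and Cyp2d10 (0.480), a cytochrome P450. Trim38 and Cyp2d10 rose, by 2.18 and 2.46 (limma adjusted p = 0.0444 and 0.0401), and Btnl6 differed by 2.16 (adjusted p = 0.0549). Each distance rests on 6 arrays of 2 groups, so genes with a large difference of the same sign lie near by construction.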
